A study of Saccharomyces cerevisiae with 6 samples.

Results

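The genes described here are 39 genes of budding yeast that encode proteins of the cell wall or enzymes that build and remodel it: mannoproteins, glucan enzymes, chitin enzymes and the wall proteases called yapsins. They were given as a list of gene names, and each was read through its brightest probe set that names a single gene, meaning the one with the highest mean over all arrays. All 39 were found, among 5656 genes that the array reads by single-gene probe sets. They have 54 such probe sets between them, out of 9335 in all, and all 39 passed the filter on dim probe sets. RNA came from the W303-1a laboratory strain (wild type, 2 arrays), from a strain with GPR1 deleted (gpr1, 2 arrays) and from a strain with GPA2 deleted (gpa2, 2 arrays). Each array was hybridised in a single colour with total RNA from 1 sample. The sources used here state neither the growth medium and phase nor how the deletions were made. Nor do the labels say whether both arrays of a strain had their own culture, and every p-value below may therefore reflect technical spread alone.

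The yeast wall is a mesh of glucan with a small amount of chitin, coated on the outside with mannoproteins. Most wall mannoproteins are joined to glucan through the remnant of a glycosylphosphatidylinositol (GPI) anchor, while the PIR proteins, named for their internal repeats, are joined to it directly. Glucan and chitin are made by synthases in the plasma membrane, then elongated, cut and cross-linked by enzymes that are themselves secreted into the wall. Wall damage is sensed by the cell wall integrity pathway, in which the kinase Slt2 activates the transcription factor Rlm1, and many of the genes below are known targets of it. GPR1 encodes a receptor on the plasma membrane that responds to glucose, and GPA2 encodes the G protein alpha subunit that acts with it, upstream of cAMP and protein kinase A. By its title, the study is about cell size and its dependence on glucose.

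The deleted genes read as the labels state. The deposited intensity of GPR1 was 5.1 and 2.8 where it was deleted and 490.7 to 1086.4 on the other 4 arrays, and GPA2 had 9.3 and 10.9 on the gpa2 arrays and 1029.2 to 2410.3 elsewhere. W303-1a is a strain of mating type a. The summed deposited intensity of 5 a-specific genes was 17808.8 to 35057 across arrays and that of 4 alpha-specific genes 394.2 to 1028.4. Median deposited intensities ran from 225.1 to 562.9, with both gpa2 arrays at the low end, so the arrays were quantile normalised and values are given as normalised log2 intensity unless called deposited. A control whose 3' probe set is much brighter than its 5' one can be a sign of RNA degradation, and the controls ranked the arrays differently. For SPT15 this ratio was 10.3 on the second wild-type array and 3.16 to 4.83 elsewhere. For SRB4 it was lowest on that array, at 1.68, and 2.04 to 2.36 elsewhere. For ACT1 it was 1.29 there and 1.26 to 1.54 elsewhere. Whether these ratios bear on the wall genes was not tested.

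As a list, the 39 genes lay close to wild type in both deletions, and 1 of them, CCW12, passed the test in 1 comparison. Changes were tested with limma over all 6956 probe sets that passed the filter, with a Benjamini-Hochberg adjusted p under 0.05 as the threshold. In the gpr1 deletion 0 of 39 passed, where 0.23% of all probe sets did (0.0863% higher and 0.144% lower). An unadjusted p under 0.05 was reached by 3 of 39 against 6.64% of all probe sets, and these were 0 higher and 3 lower (3.62% and 3.02% of all). The median log2 change of the 39 was 0.04, with 22 positive, beside -0.0007 over all probe sets, and changes ran from -1.16 to 0.53. In the gpa2 deletion 1 of 39 passed, a higher one, against 0.776% of all probe sets (0.474% higher and 0.302% lower). An unadjusted p under 0.05 was reached by 6 of 39 against 11.4% of all probe sets, with 3 on each side (6.1% higher and 5.35% lower of all). Their median was 0.10, again with 22 positive, beside -0.02 over all probe sets, and changes ran from -1.13 to 3.66. The 2 deletions are compared with the same 2 wild-type arrays, so their values below are not independent of each other.

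Groups whose arrays do not overlap were about as common among the wall genes as elsewhere. The gpr1 and wild-type arrays did not overlap for 13 of 39 genes, 7 higher and 6 lower, while 32.4% of all probe sets showed no overlap. For gpa2 the count was 15, with 7 higher and 8 lower, beside 39.7% of all probe sets. A change of under 0.5 in size was seen for 33 of 39 genes in gpr1 and 31 of 39 in gpa2, or 84.6% and 79.5%, where all probe sets gave 85.2% and 77.1%. The median standard error of a member's log2 change was 0.22.

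**Figure D1:**
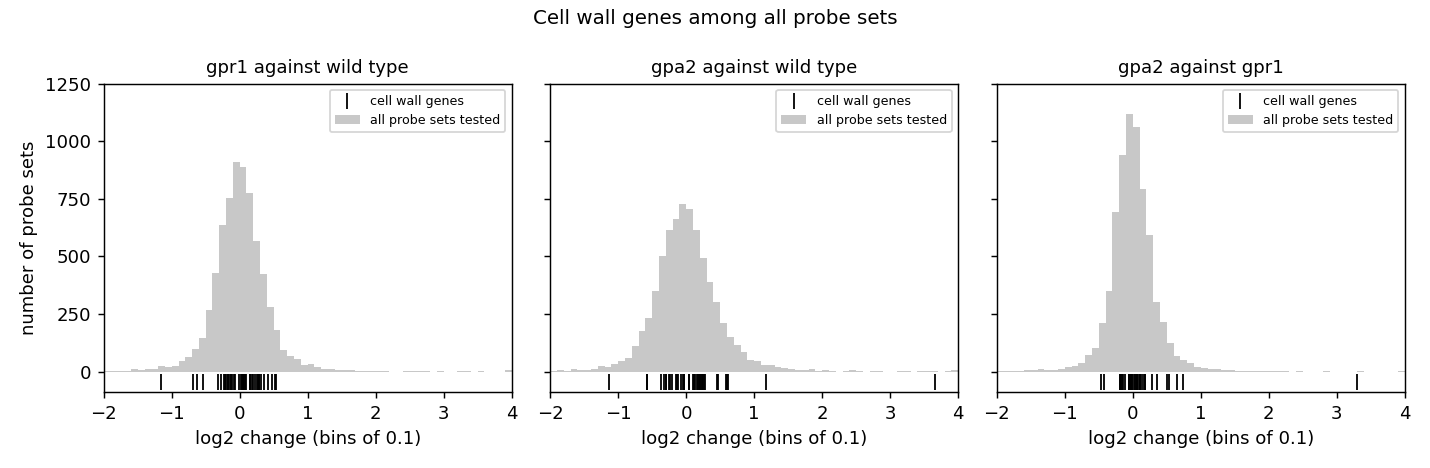
Log2 change (x axis, bins of 0.1) against the number of probe sets (y axis) for the 6956 probe sets tested, shown from -2 to 4 in grey, in each of the 3 comparisons, with the 39 cell wall genes as black ticks below 0. The ticks past 1 in size are CCW12, at 3.66 in gpa2 against wild type and 3.30 in gpa2 against gpr1, YPS3, at -1.16 and -1.13 in gpr1 and gpa2 against wild type, and KRE6, at 1.18 in gpa2 against wild type.

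Read by brightest probe sets, mannoproteins with a GPI anchor held the only wall gene that passed in the comparisons with wild type. CCW12 encodes a small, heavily glycosylated wall protein needed for a normal wall at sites of growth. Its deposited intensities were 937.8 and 1425.0 in wild type, 937.5 and 1478.0 in gpr1, and 14032.9 and 4919.9 in gpa2. Both gpa2 arrays stand above all 4 others, and the wild-type and gpr1 arrays overlap. On the normalised scale the gpa2 arrays read 14.14 and 12.81, compared with 9.27 and 10.36 (wild type) and 9.33 and 11.01 (gpr1). CCW12 rose 12.6-fold in the gpa2 deletion (log2 change 3.66 ± 0.61, SE, from 2 arrays in each group; limma adjusted p = 0.0444). In the gpr1 deletion it read 0.35 ± 0.61 (adjusted p = 0.987). The call rests on both gpa2 arrays: the log2 change was 2.99 without array 1 (adjusted p = 0.280) and 4.33 without array 2 (adjusted p = 0.0926). It was also lost without the filter on dim probe sets (adjusted p = 0.329) and without a trend in the moderation (adjusted p = 0.111).

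The other 5 genes grouped here as GPI mannoproteins changed little, and none passed. CWP1, a glucan-linked protein found at birth scars, read 12.79 and 12.33 in wild type, 12.87 and 13.28 in gpr1, and 12.98 and 13.38 in gpa2. All 4 deletion arrays lie above both wild-type arrays, and the log2 change was 0.51 ± 0.25 in gpr1 and 0.62 ± 0.25 in gpa2 (adjusted p = 0.819 and 0.408). CWP2, its neighbour on chromosome XI with 0 genes between them, is a major wall mannoprotein. It read 13.67 and 14.07 in wild type, 14.03 and 14.30 in gpr1, and 14.30 and 14.38 in gpa2, so that only gpa2 is clear of wild type (0.47 ± 0.21, adjusted p = 0.438). TOS6, a mucin-like wall protein, read 12.48 and 12.51 in wild type, 12.76 and 13.18 in gpr1, and 13.03 and 13.17 in gpa2, with log2 changes of 0.47 ± 0.21 and 0.60 ± 0.21 (adjusted p = 0.757 and 0.322). Neither CCW14, a protein of the inner wall layer, nor SED1, an abundant protein of stressed and resting cells, differed by more than 0.19. CCW14 read 14.00 to 14.31 over all 6 arrays and SED1 13.79 to 14.16. In all, 4 of the 6 genes in this group were higher without overlap in gpa2 and 3 in gpr1, where 19% and 16.1% of all probe sets were. The group medians were 0.54 and 0.32. The TIP1/TIR mannoproteins, grouped apart below, had 0 of 5 higher without overlap in either deletion.

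The TIP1/TIR family are mannoproteins known to be induced by cold and, for several, by lack of oxygen. No member passed in any comparison, and 0 of 5 had gpa2 arrays clear of wild type, where 39.7% of all probe sets did. In gpr1, 1 of 5 was clear of wild type, TIR3, which was lower, where 32.4% of all probe sets showed no overlap. TIP1 stayed between 13.11 and 13.47 on all arrays. TIR2 read 10.83 and 11.11 in wild type, 10.01 and 10.85 in gpr1, and 11.28 and 11.06 in gpa2, so that gpr1 array 1 stands lowest. Its log2 change was -0.54 ± 0.30 in gpr1 (adjusted p = 0.848), or -0.96 and -0.12 without gpr1 array 2 or array 1. TIR4, the chromosome neighbour of TIR2, read 0.06 in gpr1 and 0.23 in gpa2. For TIR1 the values were -0.18 and 0.18, and for TIR3 -0.21 and -0.03.

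The 4 PIR genes of this list form neighbouring pairs, PIR1 with PIR3 on chromosome XI and HSP150 with CIS3 on chromosome X. There are 0 genes between the genes of each pair. None of the 4 passed. PIR1, which is enriched at bud scars, read 13.01 and 13.25 in wild type, 13.34 and 13.42 in gpr1, and 13.25 and 13.40 in gpa2 (0.25 and 0.20). PIR3 read 10.26 and 10.68, 9.98 and 10.50, and 10.44 and 11.06 in the same order (-0.23 and 0.28), with overlap throughout. HSP150, known as a secreted heat shock protein, ranged from 13.85 to 14.20 with changes of 0.03 and -0.08. CIS3 read 13.47 and 13.91 in wild type, 13.65 and 14.35 in gpr1, and 14.15 and 14.40 in gpa2. Its gpa2 arrays lie above both wild-type arrays (0.59 ± 0.27, adjusted p = 0.458), while those of gpr1 overlap them (0.31 ± 0.27).

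**Figure D2:**
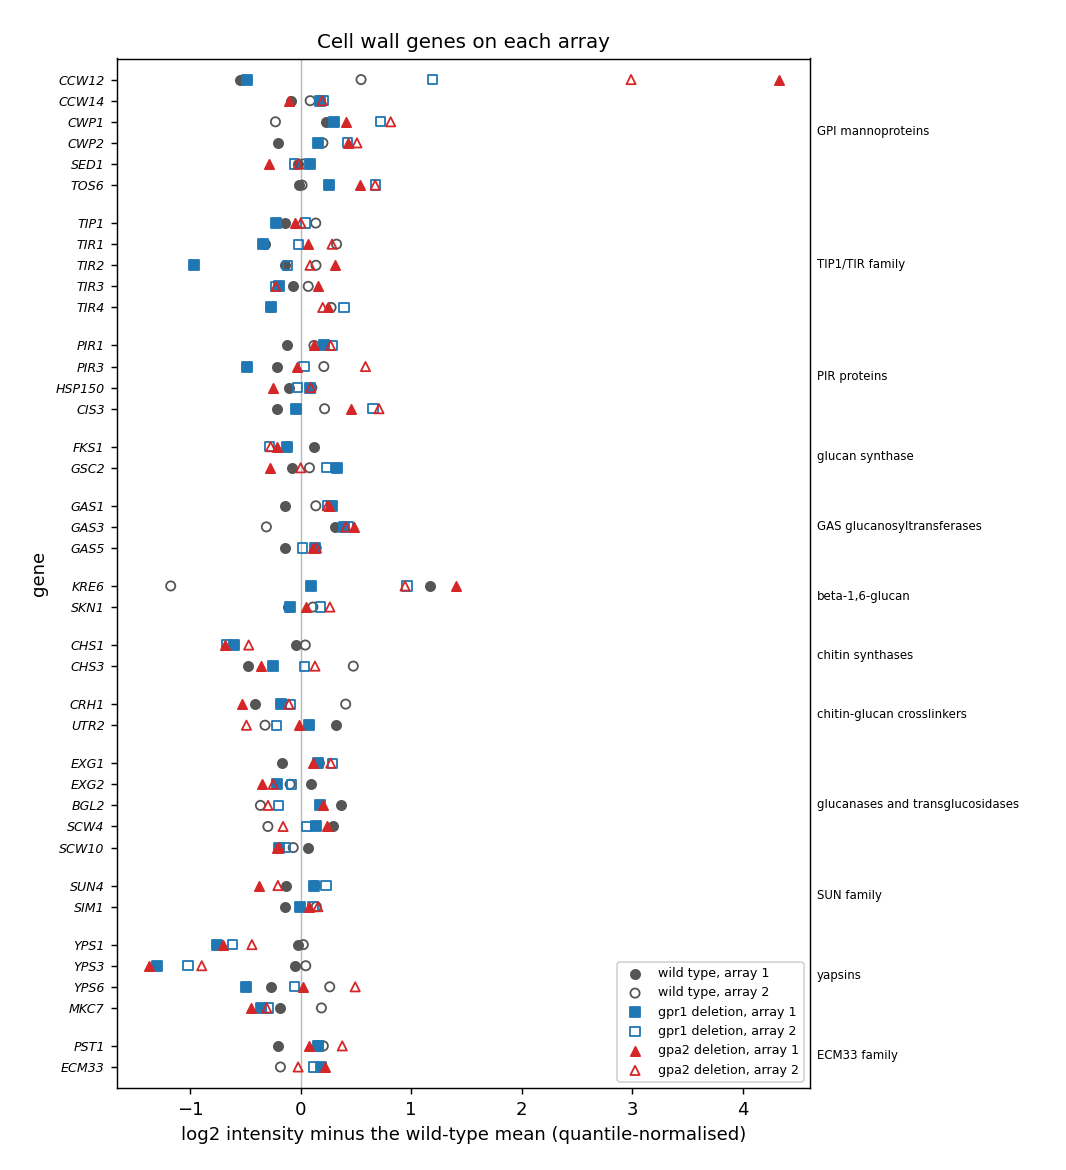
Normalised log2 intensity of each of the 39 genes (y axis, grouped by role) on each array, minus the mean of the 2 wild-type arrays (x axis); filled symbols are array 1, open symbols array 2. CCW12 lies farthest from 0 on the gpa2 arrays, YPS3 stands at -0.89 or lower on all 4 deletion arrays, and the 2 wild-type arrays of KRE6 lie far apart.

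FKS1 encodes the catalytic subunit of the glucan synthase of growing cells, and GSC2 (also known as FKS2) encodes the alternative subunit that is induced by stress and by poor carbon sources. By their brightest probe sets neither gene passed. FKS1 (9966_at) had deposited intensities of 19916.9 and 15440.0 in wild type, 17556.8 and 9815.6 in gpr1, and 8801.8 and 9490.2 in gpa2, which after normalisation gave -0.20 ± 0.19 and -0.24 ± 0.19 (adjusted p = 0.969 and 0.664). GSC2 (4959_at) read 10.17 and 10.33 in wild type, 10.58 and 10.48 in gpr1, and 9.98 and 10.25 in gpa2, or 0.28 ± 0.22 and -0.14 ± 0.22 (adjusted p = 0.932 and 0.856).

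The probe sets of these genes disagreed among themselves. FKS1 has 8, and their log2 changes in gpr1 ran from -1.59 to -0.02 with all 8 negative, while in gpa2 they ran from -1.16 to 0.33 with 5 negative. The 4 brightest read between -0.20 and -0.02 in gpr1, and the 4 dimmest between -1.59 and -0.95. Among the dim ones 2837_s_at had deposited intensities of 1920.3 and 1268.9 in wild type, 587.1 and 291.9 in gpr1, and 298.8 and 408.3 in gpa2, with every deletion array below both wild-type arrays. This probe set fell by 1.59 ± 0.23 in gpr1 (adjusted p = 0.0475) and read -1.14 ± 0.23 in gpa2 (adjusted p = 0.0817). Its call in gpr1 was lost without either gpr1 array (adjusted p = 0.292 and 0.432) and without either gpa2 array (0.0810 and 0.0922). It was also lost on the values as deposited (adjusted p = 0.335), without the filter (0.182), without a trend (0.101) and with only the groups compared (0.0807). In gpa2 it passed with the replicate number as a block (adjusted p = 0.0386) and on the values as deposited (0.0288). The probe set 2835_at read -1.29 and -1.16 in the 2 deletions, 2836_g_at -0.99 and -0.54, and 2838_s_at -0.95 and -0.34, none of them passing. Probe sets with the ending s_at may share sequence with other genes. GSC2 has 7 single-gene probe sets, 5 of them bright enough to test, with changes from -0.75 to 0.38 in gpr1. The dimmest, 2206_g_at, was not tested; its deposited intensities were 55.6 and 33.0 in wild type, while no deletion array went above 4.1. Which transcripts the dim probe sets of either gene read was not tested.

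**Figure D3:**
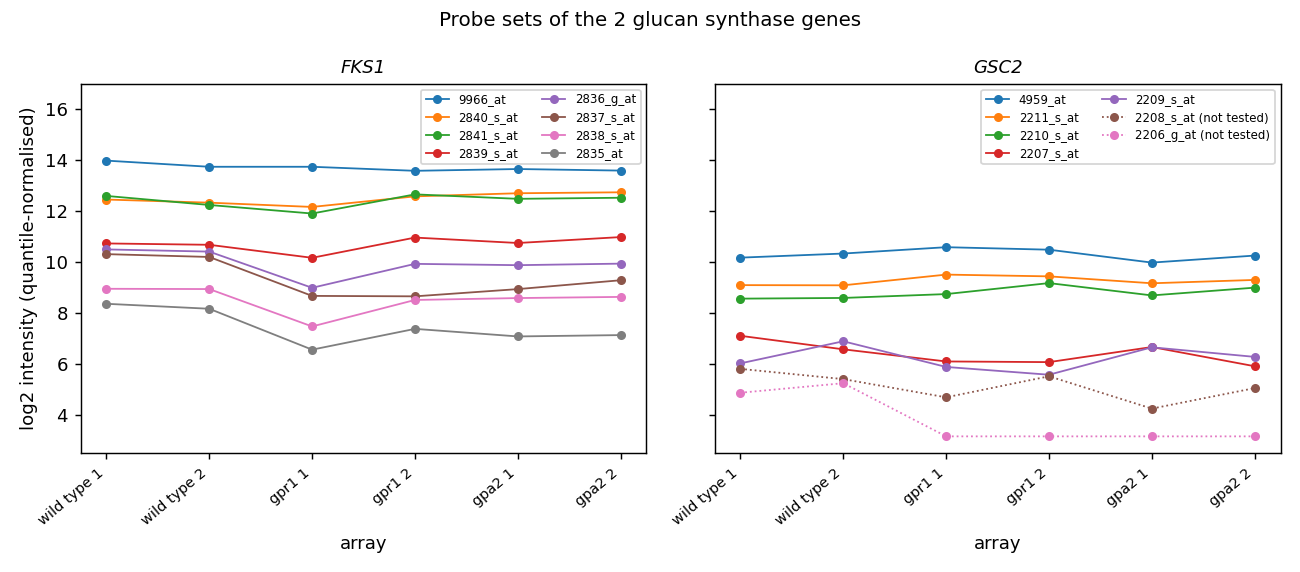
Normalised log2 intensity (y axis) of each single-gene probe set of FKS1 (left) and GSC2 (right) on the 6 arrays (x axis), with 1 line per probe set and dotted lines for probe sets too dim to test. The 4 lower lines of FKS1 are lower on the gpr1 arrays than in wild type (log2 changes of -1.59 to -0.95), while the 4 upper ones vary between arrays with mean changes of -0.20 to -0.02.

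Enzymes that elongate and branch glucan did not pass either. GAS1, the main glucan elongase of the plasma membrane, read 13.79 and 14.06 in wild type and 14.17 to 14.21 on the 4 deletion arrays, all above wild type (0.27 and 0.25, adjusted p = 0.912 and 0.637). GAS3, a less abundant relative, read 11.97 and 11.35 in wild type and 12.06 to 12.15 on the deletion arrays (0.41 and 0.45, adjusted p = 0.879 and 0.518), and here the 2 wild-type arrays differed by more than the change. GAS5 had changes of 0.07 and 0.13. KRE6, needed for the branched glucan that holds GPI proteins, had deposited intensities of 1960.1 and 252.7 in wild type, 888.6 and 823.5 in gpr1, and 888.4 and 732.8 in gpa2. Wild-type array 2 alone is low. The log2 change of KRE6 in gpa2 was 1.18 ± 0.65 (adjusted p = 0.535), but 2.35 without wild-type array 1 (adjusted p = 0.0148) and 0.0009 without wild-type array 2. In gpr1 it was 0.53, with a range of -0.65 to 1.70 when arrays were left out in turn. SKN1, the paralogue of KRE6, read 9.65 to 10.02 on all arrays, with changes of 0.04 and 0.16.

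By brightest probe sets, glucanases and cross-linking enzymes stayed within 0.32 of wild type on average. The glucanase and transglucosidase genes EXG1, EXG2, BGL2, SCW4 and SCW10 changed by -0.17 to 0.23 in gpr1 and by -0.30 to 0.19 in gpa2, and 0 of 5 had an unadjusted p under 0.05, which 6.64% and 11.4% of all probe sets had. SCW10 read 13.37 and 13.24 in wild type, 13.11 and 13.16 in gpr1, and 13.09 and 13.11 in gpa2. A dimmer probe set of SCW10, 9311_at, read -0.47 ± 0.26 in gpr1 and 0.02 ± 0.26 in gpa2 (adjusted p = 0.855 and 0.988). SCW4, the paralogue of SCW10, read 13.50 and 12.91, 13.35 and 13.26, and 13.44 and 13.04. Its changes were 0.10 and 0.04, and its wild-type pair spans the other 4 arrays. CRH1 and UTR2 transfer chitin onto glucan. CRH1 read 12.82 and 13.63 in wild type, 13.05 and 13.13 in gpr1, and 12.69 and 13.12 in gpa2 (-0.13 and -0.32), and UTR2 13.30 and 12.66, 13.06 and 12.76, and 12.96 and 12.49 (-0.07 and -0.25). SUN4, a SUN family protein that acts in the separation of daughter cells, read 12.34 and 12.60 in wild type, 12.59 and 12.70 in gpr1, and 12.09 and 12.26 in gpa2, lowest on the gpa2 arrays (-0.29 ± 0.20, adjusted p = 0.609). SIM1, of the same family, read 11.91 to 12.20 throughout.

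The most negative log2 changes in both deletions, by brightest probe set, were those of the yapsins YPS3 and YPS1 and of CHS1. Yapsins are aspartyl proteases anchored at the plasma membrane and wall, and CHS1 encodes the chitin synthase that repairs the septum. YPS3 had deposited intensities of 2675.8 and 2136.5 in wild type, 1082.9 and 666.5 in gpr1, and 423.1 and 647.0 in gpa2. Its normalised values were 10.79 and 10.89 in wild type, 9.54 and 9.82 in gpr1, and 9.47 and 9.95 in gpa2, with all 4 deletion arrays far below wild type. YPS3 read -1.16 ± 0.25 in gpr1 (adjusted p = 0.205) and -1.13 ± 0.25 in gpa2 (adjusted p = 0.0948), and neither passed. When each array was left out in turn, the change stayed between -1.30 and -1.02 in gpr1 and between -1.37 and -0.89 in gpa2. With the replicate number as a block YPS3 passed in gpa2 (adjusted p = 0.0312).

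YPS1 lies next to YPS3 on chromosome XII, and it read 12.15 and 12.20 in wild type, 11.42 and 11.57 in gpr1, and 11.48 and 11.74 in gpa2. All deletion arrays again lie below wild type, by 0.68 ± 0.20 and 0.57 ± 0.20 on average (adjusted p = 0.441 and 0.332). MKC7, the paralogue of YPS1, read 11.54 and 11.92, 11.37 and 11.44, and 11.28 and 11.42 in the same order, again without overlap (-0.32 and -0.38, adjusted p = 0.902 and 0.540). YPS6 did not share this order, with overlapping arrays and changes of -0.27 and 0.26. Thus 3 of 4 yapsins were lower without overlap in each deletion, where 16.3% of all probe sets in gpr1 and 20.8% in gpa2 were. CHS1 read 11.02 and 11.11 in wild type, 10.46 and 10.40 in gpr1, and 10.38 and 10.60 in gpa2, giving -0.63 ± 0.21 and -0.58 ± 0.21 (adjusted p = 0.535 and 0.336). CHS3, which makes most of the chitin of the wall, read 10.99 and 11.95 in wild type, 11.22 and 11.51 in gpr1, and 11.11 and 11.60 in gpa2, with changes of -0.11 in both deletions. PST1 and ECM33 are GPI proteins of a shared family, and PST1 is known to be induced by wall damage. PST1 read 12.58 and 12.99, 12.94 and 12.94, and 12.86 and 13.16 (0.16 and 0.23), and ECM33 14.13 and 13.77, 14.13 and 14.07, and 14.17 and 13.93 (0.15 and 0.10). Another ECM33 probe set, 7301_at, read -0.02 in both deletions.

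**Figure D4:**
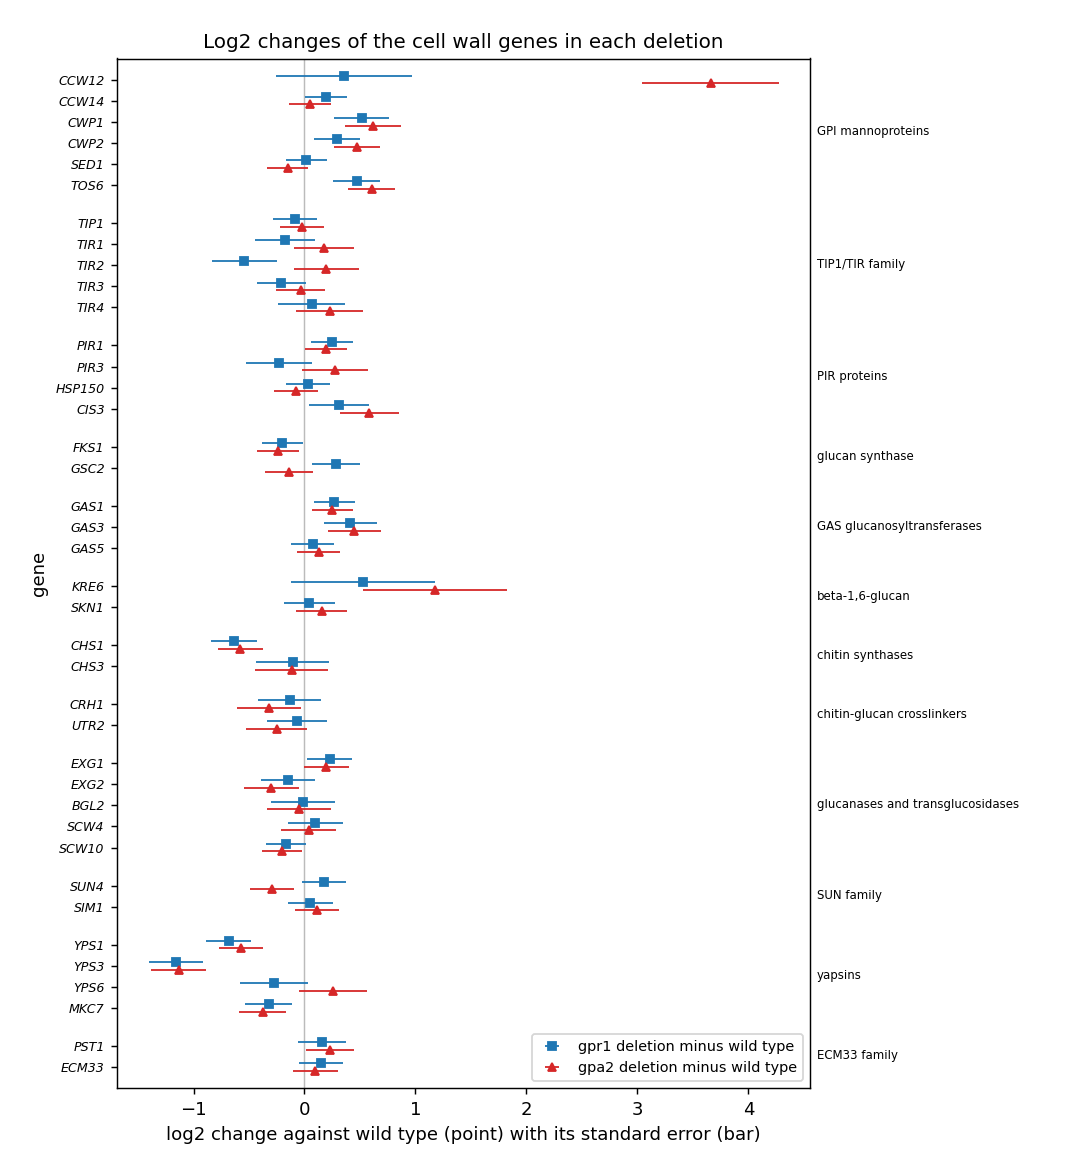
Log2 change of each of the 39 genes against wild type (x axis) in the gpr1 deletion (blue squares) and the gpa2 deletion (red triangles), with bars of 1 standard error and genes grouped by role (y axis). CCW12 stands apart in gpa2 at 3.66, and YPS3, YPS1 and CHS1 lie below 0 in both deletions, at -0.57 or lower.

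The deletions were also compared with each other, which sets the loss of the receptor against the loss of the G protein. No wall gene passed, and the 2 probe sets that did among all 6956 (0.0288%, with 0.0144% on each side) were those of GPR1 and GPA2. An unadjusted p under 0.05 was reached by 3 of the 39 against 2.34% of all probe sets, 2 of them higher in gpa2 and 1 lower, beside 1.27% and 1.08% of all. CCW12 was 3.30 ± 0.61 higher in gpa2 than in gpr1 (adjusted p = 0.618) and TIR2 0.74 ± 0.30 higher (adjusted p = 0.9997), while SUN4 read -0.47 ± 0.20 (adjusted p = 0.9997). Arrays of the deletions did not overlap for 8 of 39 genes, where 30.9% of all probe sets showed no overlap, and 5 of these were higher in gpa2 and 3 lower (15.9% and 15% of all). The balance of signs depended on the scaling: 21 of 39 genes were higher in gpa2 after quantile normalisation and 31 after scaling each array to a common median. That shift included CCW14 (-0.14 and 0.17 under the 2 scalings), HSP150 (-0.11 and 0.21) and GAS1 (-0.02 and 0.35), 3 of the brightest wall genes, none of which had a deposited intensity under 10525.3 on any array. Of all probe sets, 47.86% were higher in gpa2 after quantile normalisation. Their median change was -0.0136 there and -0.0042 after median scaling.

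Other wall genes gave the same picture of few calls, as described by 5 further lists. None of their members passed in any comparison. In the integrity pathway, 21 of 23 listed genes were tested, with medians of -0.21 in gpr1 and -0.19 in gpa2. At an unadjusted p under 0.05 there were 0 higher and 1 lower in gpr1, and 1 higher and 3 lower in gpa2, where all probe sets gave 3.62% and 3.02%, and 6.1% and 5.35%. SLT2, the kinase of the pathway, had deposited intensities of 5741.9 and 6917.5 in wild type, 3522.0 and 2087.6 in gpr1, and 1244.5 and 2065.8 in gpa2. Its arrays do not overlap with wild type in either deletion, and the log2 change was -0.82 ± 0.29 and -0.87 ± 0.29 (adjusted p = 0.600 and 0.309). RLM1, added here after its values were seen as the factor that Slt2 activates, read 10.63 and 11.30 in wild type, 10.31 and 10.61 in gpr1, and 9.84 and 10.57 in gpa2 (-0.50 ± 0.32 and -0.76 ± 0.32, adjusted p = 0.901 and 0.415). ROM1, which encodes an exchange factor for the GTPase Rho1, read 0.54 in gpr1 and 0.89 in gpa2. SDP1, a phosphatase that acts on Slt2, read -0.65 and 1.45, and its 2 gpr1 arrays were 5.06 and 7.64.

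Genes that are known to be induced by wall damage did not move one way. Of 11 such genes, 9 of them members, 6 were positive in gpr1 and 5 in gpa2, with medians of 0.02 and -0.08. Chitin genes outside the list had medians of -0.15 and -0.05 over 10 tested. PCM1, an enzyme of the precursor of chitin, read -0.45 and -0.44, while GNA1, of the same list, read 0.50 and 0.27. Genes of glucan assembly had medians of 0.01 and 0.04 over 12 tested. KRE5, which is needed for branched glucan, read -0.84 in gpr1, where its 2 arrays were 6.90 and 9.18, and 0.29 in gpa2. Genes of daughter-cell separation had medians of 0.19 and -0.03 over 8 tested, with SCW11, a glucanase of the daughter cell, at 0.64 ± 0.20 and 0.58 ± 0.20 (adjusted p = 0.460 and 0.315). Other wall proteins, 21 tested, had medians of 0.11 and 0.13, with 17 positive in gpr1 and 12 in gpa2. FLO10, a flocculin, read 0.65 and 0.59, and TOS1 read -0.30 and -0.37. DAN1 read 0.01 in gpr1 and -0.80 in gpa2, where its 2 arrays were 6.70 and 5.33.

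Differences between the 2 arrays of a strain recurred across strains for many wall genes. For 19 of 39 genes array 2 was higher than array 1 in all 3 strains and for 5 it was lower in all 3, which is 61.5% together. Of all 6956 probe sets, 1789 were higher and 1407 lower on array 2 in all 3 strains, or 46.0% together. BGL2, a major wall glucanase, read 13.65 and 12.93 on arrays 1 and 2 of wild type, 13.47 and 13.09 of gpr1, and 13.49 and 13.00 of gpa2. UTR2, SCW4, FKS1 and ECM33 were lower on array 2 in the same way. PIR3 was higher on array 2 by 0.42, 0.52 and 0.62 in wild type, gpr1 and gpa2, and CHS3 by 0.95, 0.29 and 0.49. CCW12 went both ways, with array 2 higher by 1.10 and 1.67 in wild type and gpr1 and lower in gpa2 (-1.34). The labels do not say what the array number stands for, apart from a source label that marks gpa2 array 2 as a second experiment.

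**Figure D5:**
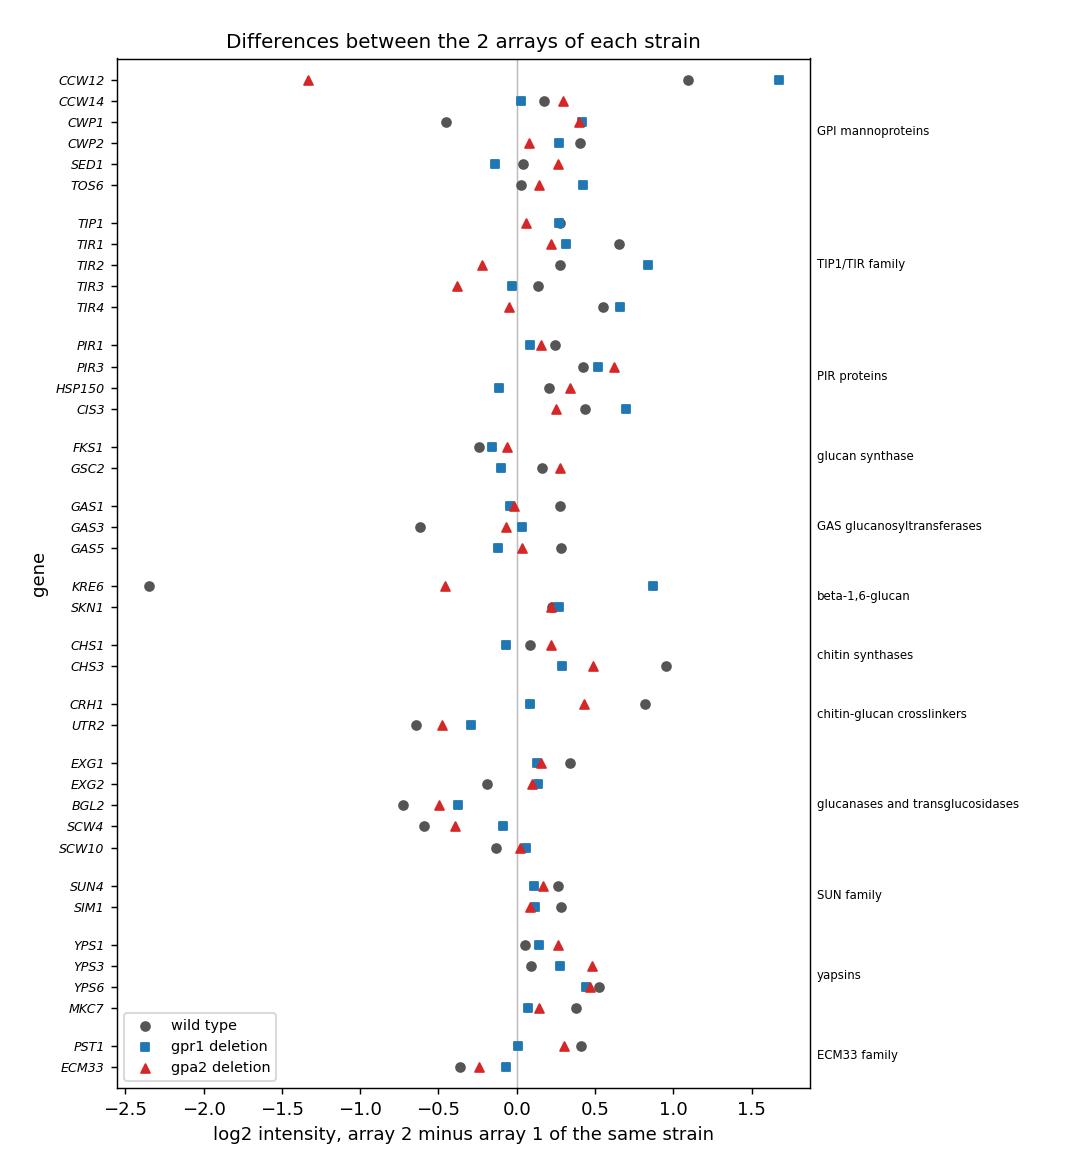
Normalised log2 intensity of array 2 minus array 1 (x axis) within wild type (grey circles), gpr1 (blue squares) and gpa2 (red triangles) for each of the 39 genes (y axis, grouped by role). BGL2, SCW4 and UTR2 lie below 0 in all 3 strains, PIR3, CHS3 and YPS6 above 0, and KRE6 in wild type stands at -2.35.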

How the data were processed

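The authors deposited a linear intensity for every probe set on 6 arrays; per the labels the hybridisations were single-colour with total RNA. The sources used here state neither the summary method nor any scaling. Every column matched 1 sample by its label, and replicate numbers came from the sample titles. Array medians differed by up to 1.32 on the log2 scale. The 9335 probe sets, 60 controls included, were quantile normalised, floored at the pooled 10th percentile (8.94, or 3.16 on the log2 scale), and converted to log2. Controls and 2319 probe sets with a mean under the 25th percentile were left out, which left 6956. Of these, 5650 name 1 gene, 275 several and 1031 none, by the platform annotation, and all 39 member symbols matched the R64 gene table, which also gave gene order.

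limma 3.58.1 in R 4.3.3 was fitted to all 6 arrays with a mean for each group (3 residual and 5.52 prior degrees of freedom, trend). The threshold was a Benjamini-Hochberg adjusted p of 0.05 over all 6956 probe sets. The procedure was tested on simulated data with independent noise on every array. Those data held no difference shared by arrays of the same number, so they do not give the error rates of the real arrays. The number of arrays limits the precision.

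The members and lists were chosen with earlier results of these data known. Named in full were genes past the threshold, genes changed by at least 1 on the log2 scale without overlap, and 10 paralogue pairs; others appear by value or range. From the other lists, genes past the threshold and the 3 largest changes could be named. Alternatives were a replicate block, the deposited values, median scaling, other floors, filters and moderation, only the groups compared, the mean of a gene's probe sets, and leaving out each array. A planned search of promoters was not run, since no sequences were used here.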

Additional observations from a re-analysis of the deposited data

How the results depend on the processing

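Under 15 alternatives, 8 of 1755 member values changed their side of the threshold, and these belong to CCW12, YPS3 and KRE6. In the main fit 1 wall gene passed, CCW12 in gpa2 against wild type, so nearly all values had no call to lose. CCW12 lost its call without the filter and without a trend, and its call rests on both gpa2 arrays, as given above. With a replicate block 33 probe sets passed in gpr1 against wild type in place of 16, and 123 in gpa2 against wild type in place of 54, with 2 wall genes (CCW12 and YPS3) in place of 1. Differences between arrays 2 and 1 correlated between strains at 0.20 to 0.40 across probe sets, but 2 arrays per group cannot show that the numbers pair the samples. On the values as deposited the medians of the 39 genes were -0.26, -0.84 and -0.58 in gpr1 against wild type, gpa2 against wild type and gpa2 against gpr1, beside -0.32, -1.02 and -0.70 over all probe sets. There 126 probe sets passed in gpa2, 19 higher and 107 lower, with 2 wall genes (CCW12 at 2.85 and YPS3 at -2.19), and 10 between the deletions, with CCW12 (2.82, adjusted p = 0.00182) among them. Without the filter 15 probe sets and 0 wall genes passed in gpa2 and 5 probe sets between the deletions; with a filter at the median 10 passed in gpr1 and 0 between the deletions. Without a trend 6 passed in gpr1 and 26 in gpa2, with 0 wall genes, and with only the groups compared 8 and 27. Leaving out each array in turn gave 5 to 53 probe sets in gpr1, 7 to 179 in gpa2 and 2 to 5 between the deletions. The wall genes called were 0 throughout in gpr1 and between the deletions and 0 to 2 in gpa2. Their medians were -0.067 to 0.13, -0.013 to 0.13 and -0.02 to 0.07. The cause of these shifts was not tested. Changes of dim probe sets are compressed by the floor, and 2 arrays per group leave a median standard error of 0.28 over all probe sets.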
